A study of Mus musculus with 2 samples.

Results

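Fxyd4 and 9 other genes of the renal collecting duct were examined in ureters of mouse embryos at E16.5 to ask how their transcripts differ between Pparg-cKO and control tissue. The set holds 10 of the 30011 genes represented on the arrays. Its members were taken by their gene names in the array files. The set was chosen with earlier results of these data known, so it was not picked blind to the values. They are Fxyd4, the sodium channel subunits Scnn1a, Scnn1b and Scnn1g, Avpr2, Hsd11b2, Atp6v1b1, Foxi1, Slc26a4 and Calb1.

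The data comprised 2 dual-colour Agilent arrays, each with RNA of 1 Pparg-cKO pool hybridised against RNA of 1 control pool. Array 1 carried female pools and array 2 male pools, and the dyes were exchanged between the arrays. Pparg-cKO embryos were Pax2-cre/+; Pparg(fl/fl). Controls were littermates without the cre transgene and are labelled Pparg(fl/?), so that they carry at least 1 floxed allele of their own. Both genotypes were kept on the outbred NMRI background. The floxed allele has loxP sites around exons 2 and 3 of Pparg, the gene of a ligand-dependent nuclear receptor. Pax2-cre recombines in the nephric duct, the ureteric epithelium and the collecting duct system, whereas the ureteric mesenchyme, which was dissected along with the epithelium, does not descend from these cells. Each pool combined ureters of several embryos, so the arrays say nothing about the spread between embryos.

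The collecting duct of the kidney and the epithelium of the ureter both descend from the nephric duct through the ureteric bud. In the mature collecting duct, principal cells take up sodium through the epithelial sodium channel and water through aquaporins, under control of aldosterone and vasopressin. Intercalated cells secrete acid or bicarbonate with the help of a vacuolar proton pump and anion exchangers. The sodium pump in the basolateral membrane drives the sodium uptake, and small membrane proteins of the FXYD family, Fxyd4 among them, tune its affinity for ions. The epithelial sodium channel is also known from the urothelium, the stratified epithelium that lines the ureter and bladder.

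The Fxyd4 result rests on 1 probe of 60 bases, and its first 30 bases are shown because no second probe can be set against it. It lies at chr6:117883603-117883662 on the minus strand (mm9).
Fxyd4: gcttccctagaacatactgttaagtcttca
Avpr2, the gene of the vasopressin receptor of principal cells, had 2 probes on the X chromosome, at chrX:71139472-71139531 and chrX:71139568-71139627 on the plus strand (mm9). Their first 30 bases are shown because every spot of the second probe was flagged as non-uniform and left out, while the first was dim. Capitals mark the polyadenylation signal AATAAA.
Avpr2 first probe: tctggcaagtactctgcaggtgaggaagac
Avpr2 second probe: tgtctccctAATAAAagttgcagttcattt
The exons and untranslated regions under these probes were not analysed here, because no annotation of that build was used.

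The array labels and the study's own direction assign the dyes to opposite genotypes. RNA A is therefore the RNA labelled with AlexaFluor647 (red) on array 1 and AlexaFluor555 (green) on array 2, and RNA B is the other. By the dye labels RNA A is the control, and by the direction of the study's text RNA A is the Pparg-cKO. The sample titles name Pparg-cKO against control, and the deposited fold changes run as RNA A over RNA B on both arrays. Krt20 and Upk1a, genes of the superficial urothelial cells, are described in the study as weaker in mutant ureters by in situ hybridisation, and both were dimmer in RNA A on both arrays. On this basis RNA A is likely the Pparg-cKO and Fxyd4 was likely brighter in the mutant, but the dye labels oppose this and the direction is not settled. All ratios below set RNA A over RNA B on the log2 scale, so a positive value means brighter in RNA A, and under either reading the sizes stay the same. Since the arrays differ in dye as well as in sex, an effect of dye and one of sex cannot be told apart. Signals are processed intensities in arbitrary units, and signals of different probes were not compared with each other. The 1.5-fold filter, after the study's methods, asks that a gene differ by 1.5-fold or more to the same side on each array, with the brighter RNA at a signal of 100 or more on each. A probe was called well above background where the scanner software marked at least 0.5 of its kept spots so. A gene was tested with limma where it was well above background on both arrays in RNA A or in RNA B.

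On array 1, 80.3% of the green and 70.4% of the red spot signals were well above background, with nearly the same shares on array 2, and 0 spots were saturated. The uroplakin genes of the urothelium and the contractile genes of smooth muscle, which mark the labelled tissue, were well above background on both arrays. Pparg itself had 1 probe, with signals of 11295 for RNA A against 7430 for RNA B on array 1, then 12888 against 7872 on array 2. Its ratios were 0.60 and 0.71, the mean 0.66. The study's text describes a transcript without the floxed exons in the mutant, and whether the probe lies in the deleted part was not determined here, so that this value does not check the dye labels.

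Of the 10 genes, Fxyd4 alone passed the 1.5-fold filter. It was brighter in RNA A on both arrays, on average 2.24-fold. For Scnn1b and Scnn1g, RNA B was brighter on both arrays without passing the filter. Scnn1b fell short of 1.5-fold on each array, Scnn1g on array 1 only. Scnn1a, Hsd11b2, Foxi1 and Calb1 leaned to different sides on the arrays. Avpr2, Atp6v1b1 and Slc26a4 were too dim to be tested. The count of 1 gene brighter in RNA A and 0 genes brighter in RNA B past the filter stands beside 0.157% and 0.23% of all 29982 genes with values. None of the 10 exceeded 1.5-fold to opposite sides at such a signal, as 0.43% of all genes did. Only 2 of the 10, Fxyd4 and Scnn1b, reached a signal of 100 on both arrays, beside 15008 of all 29982 genes. The other genes of the set could therefore not enter any of these counts.

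**Figure D1:**
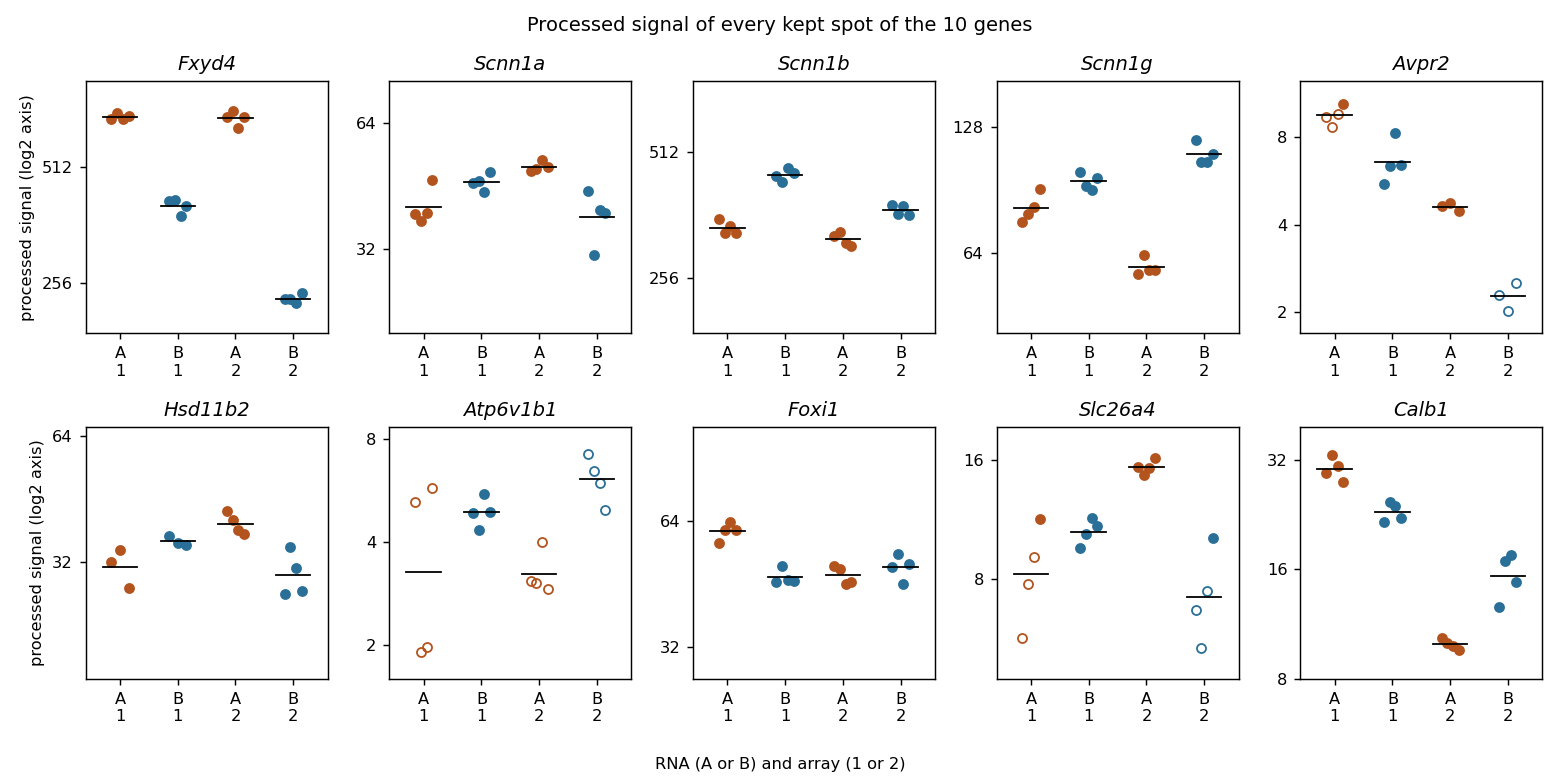
Processed signal (log2 axis, arbitrary units, a separate range for each gene) of every kept spot of the probe that represents each gene, by RNA and array. Filled points were well above background, open points were not, and bars give the mean of the log2 signals. The 4 spots of Fxyd4 in RNA B on array 2 sit between 227 and 240 and those in RNA A on the same array between 646 and 713.

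Fxyd4 encodes the FXYD protein also known as corticosteroid hormone-induced factor, which raises the affinity of the sodium pump for sodium in the collecting duct. On array 1 its signal was 691 for RNA A against 406 for RNA B. On array 2 it was 684 against 233. RNA A was thus almost equally bright on both arrays, while RNA B was dimmer on array 2. The spots of the RNAs did not overlap on either array. On array 1 the 4 spots of RNA A ran from 681 to 705 and those of RNA B from 381 to 419. On array 2 they ran from 646 to 713 and from 227 to 240. The log2 ratio was 0.77 on array 1, that is 1.70-fold, and 1.56 on array 2, that is 2.94-fold. Its mean was 1.16 ± 0.56 (SD, n = 2 arrays). The ratios of the 4 spots of an array had a standard deviation of 0.05 on either array, so that the difference of 0.79 between the arrays was far larger than the spread between spots. A larger difference between the arrays was seen in 10.2% of the tested genes. A mean ratio of larger size, in either direction, was seen in 0.527% of tested genes, and 46 of the 21429 tested genes had a higher one. Since the set was chosen with earlier results of these data known, this rank is a description and not a test.

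The dye exchange allows the same signals of Fxyd4 to be compared within each dye, which adds no independent measurement. Within the red dye, RNA A on array 1 exceeded RNA B on array 2 by 1.57 on the log2 scale. Within the green dye, RNA A on array 2 exceeded RNA B on array 1 by 0.75. RNA A was the brighter RNA in both dyes, although each of these values sets a pool of one sex against a pool of the other. The test across all genes did not call Fxyd4: with limma the unadjusted p was 0.001 and the adjusted p 0.154. Over the alternatives with a test, the adjusted p of limma for Fxyd4 ranged from 0.122 to 1. At adjusted p under 0.05 limma called 0 of the 7 tested genes of the set and 0.313% of all tested genes. At an unadjusted p under 0.05 it called 2 of the 7, Fxyd4 and Scnn1g, against 3.78% of all. Both counts describe a set chosen with earlier results of these data known and are not a test of it. In pooled tissue, fewer cells that carry a transcript and less of it per cell cannot be told apart.

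The epithelial sodium channel is built from the subunits alpha, beta and gamma, encoded by Scnn1a, Scnn1b and Scnn1g. For Scnn1b, RNA B was brighter on both arrays by a small margin. Its signals were 337 for RNA A against 450 for RNA B on array 1, then 316 against 371 on array 2. The spots of the RNAs did not overlap on either array, with RNA A at 328 to 353 against RNA B at 433 to 467 on array 1. The ratios were -0.42 and -0.23, the mean -0.32 ± 0.13 (SD, n = 2 arrays). This amounts to 1.25-fold, and limma gave an adjusted p of 1.00.

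Scnn1g moved to the same side as Scnn1b, mainly on array 2. Its signals were 82.0 for RNA A against 95.1 for RNA B on array 1, then 59.3 against 110 on array 2. On array 1 the spots of RNA A reached 90.9 and overlapped those of RNA B, which began at 90.5. On array 2 they did not overlap. The ratios were -0.21 and -0.90, with a mean of -0.55 ± 0.48 (SD, n = 2 arrays). On array 2 alone Scnn1g exceeded 1.5-fold at a signal over 100. The unadjusted p of limma was 0.0394 and the adjusted p 1.00.

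Scnn1a, whose product is needed for the channel to conduct, did not share this side. Its signals were 40.3 for RNA A against 46.2 for RNA B on array 1, then 50.2 against 38.1 on array 2. RNA A was the dimmer RNA in the female pools and the brighter one in the male pools, and on array 1 the spots of the RNAs overlapped. The ratios were -0.20 and 0.40, the mean 0.10 ± 0.42 (SD, n = 2 arrays). Scnn1b and Scnn1g are neighbours on chromosome 7, with their probes 149.7 kb apart, whereas the Scnn1a probe lies on chromosome 6.

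**Figure D2:**
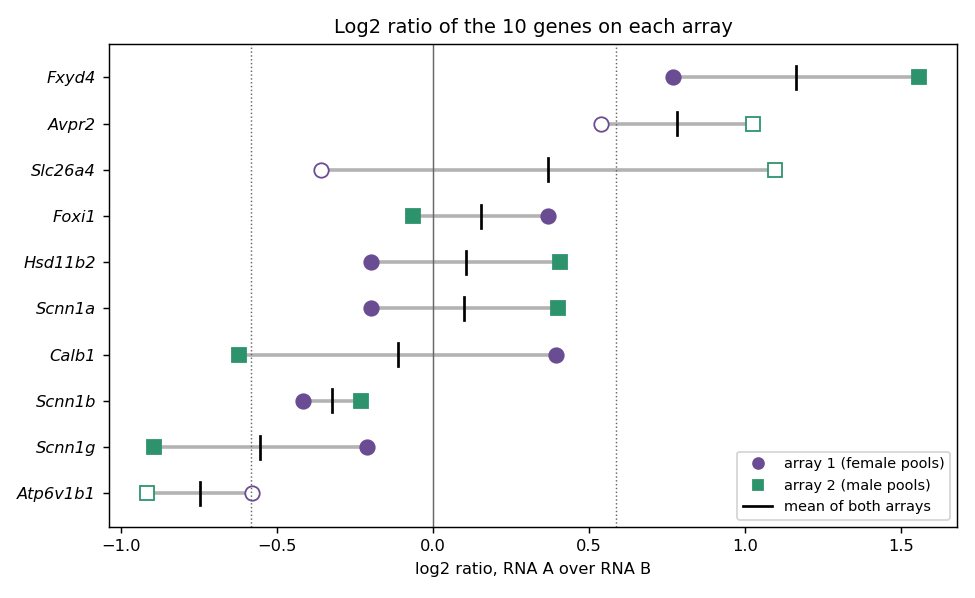
Log2 ratio of RNA A over RNA B for each of the 10 genes on array 1 (circles) and array 2 (squares), with the mean of both arrays as a bar. Filled symbols mark genes tested with limma, open ones those too dim for the test, and dotted lines 1.5-fold. Fxyd4 lies beyond the right-hand line on both arrays, at 0.77 and 1.56, and 5 genes have their arrays on different sides of 0, Slc26a4 among them from signals too dim for a fold change.

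Hsd11b2 encodes the enzyme that inactivates glucocorticoids and so leaves the mineralocorticoid receptor to aldosterone. Its signals were 31.3 for RNA A against 35.9 for RNA B on array 1, then 39.6 against 29.8 on array 2. Green was the brighter dye on both arrays, as for Scnn1a. The ratios of Hsd11b2 were -0.20 and 0.41, with a mean of 0.10 ± 0.43 (SD, n = 2 arrays). On array 2 the spots of the RNAs did not overlap, RNA A at 37.4 to 42.4 and RNA B at 26.9 to 34.9.

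Avpr2 encodes the vasopressin receptor that sends aquaporin 2 to the apical membrane. Its first probe had signals of 9.53 for RNA A against 6.57 for RNA B on array 1, then 4.61 against 2.27 on array 2. It was well above background only in the green channel of either array, so that no RNA was measured on both arrays and no fold change is given. The second probe was bright but uneven, with signals between 71.3 and 1402 over its spots, and was left out. In all 8 of its spots the red signal was higher than the green one. As the dyes were exchanged, this put RNA A above RNA B on array 1, with a ratio of 0.91 over all 4 spots, and below it on array 2, with a ratio of -1.16.

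Foxi1 encodes the forkhead factor required for intercalated cells. Its signals were 60.6 for RNA A against 47.0 for RNA B on array 1, then 47.6 against 49.7 on array 2. RNA A on array 1 stood above the other 3 values, which lay close together. The ratios were 0.37 and -0.06, the mean 0.15 ± 0.31 (SD, n = 2 arrays).

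Slc26a4 encodes pendrin, the chloride and bicarbonate exchanger of one type of intercalated cell. Its signals were 8.22 for RNA A against 10.6 for RNA B on array 1, then 15.4 against 7.21 on array 2. As for the first Avpr2 probe, only the green channel was well above background on each array. Green was the brighter dye on both, and no fold change is given.

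Atp6v1b1 encodes the proton pump subunit typical of intercalated cells. Its signals were 3.27 for RNA A against 4.89 for RNA B on array 1, then 3.24 against 6.10 on array 2. It was well above background only in RNA B on array 1, and its other values are bounds without a fold change.

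Calb1 encodes the calcium-binding protein calbindin-D28k of the distal nephron, and in the embryo it also marks the ureteric bud. On array 1 the brighter of its 2 probes gave 30.2 for RNA A against 23.0 for RNA B. On array 2 they were 9.95 and 15.3. Both RNAs were thus brighter in the female pools than in the male pools. The ratios were 0.39 and -0.62, with a mean of -0.11 ± 0.72 (SD, n = 2 arrays), and the spots of the RNAs did not overlap on either array. The second probe gave the same signs, 0.62 and -1.14.

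Ratios of opposite sign on the arrays were common. They occurred in 4 of the 7 tested genes of the set and in 61.0% of all tested genes, so the share in the set is near that of the whole array.

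**Figure D3:**
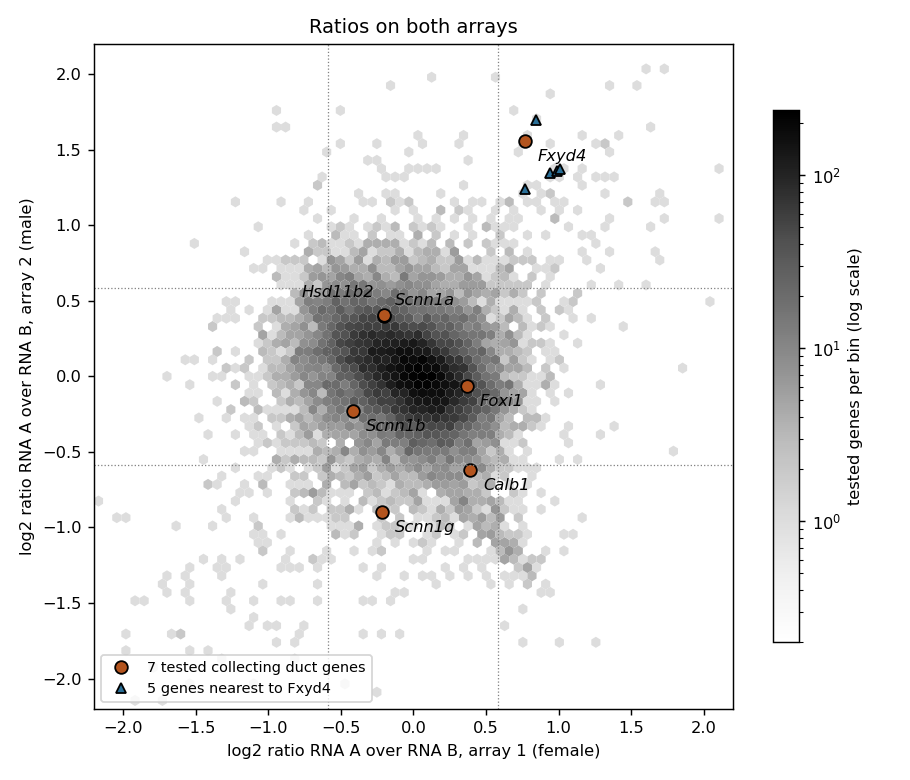
Log2 ratio of RNA A over RNA B on array 2 (vertical) against array 1 (horizontal) for all tested genes as a density in grey, with 23 genes outside the axes. Circles mark the 7 tested genes of the set, triangles the 5 genes whose pair of ratios was nearest to that of Fxyd4, and dotted lines 1.5-fold. Fxyd4 sits outside the dense cloud at 0.77 and 1.56, whereas Scnn1a, Hsd11b2, Foxi1 and Scnn1b lie within it.

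The genes whose ratios resembled those of Fxyd4 most were sought among 15007 other genes whose brighter RNA reached a signal of 100 on each array, by the Euclidean distance between the pairs of ratios. With 2 arrays this likeness rests on 2 values a gene. The nearest was Misp3, with ratios of 0.85 and 1.70 at a distance of 0.16. It was followed by Slc16a12, the gene of a creatine transporter, with 0.94 and 1.35. Scin, which encodes the actin-severing protein scinderin, had 0.99 and 1.36. Krt4, a keratin of non-cornified stratified epithelia, had 1.01 and 1.37. Mab21l4 had 0.77 and 1.24. All 5 passed the 1.5-fold filter on the side of RNA A, as their nearness to Fxyd4 makes likely, and none passed limma at an adjusted p under 0.05, their values running from 0.0861 to 0.179.

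The other members of the FXYD family did not share the ratio of Fxyd4. All 6 were tested, with mean ratios between -0.15 and 0.21 and a median of -0.02, beside 0.00 for all genes, and 0 passed the filter or limma. Fxyd5, a member widely expressed in epithelia, had the highest mean ratio at 0.21 ± 0.02. Its signals were 348 for RNA A against 304 for RNA B on array 1, then 388 against 331 on array 2. Fxyd3 had -0.14 ± 0.04 and Fxyd6 -0.15 ± 0.33 (SD, n = 2 arrays). All 6 stayed within 1.5-fold of equality on each array.

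The sodium pump itself showed no such shift. Of 7 genes of its catalytic alpha and its beta subunits, all tested, 0 passed the filter or limma, and the median of their mean ratios was 0.02. Atp1a4, otherwise known from sperm, had a mean of -0.58 ± 0.23 (SD, n = 2 arrays) at signals of 35.6 to 60.2.

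Genes that control the sodium channel were listed as the steroid receptors Nr3c2 and Nr3c1, the kinase Sgk1, the ubiquitin ligase Nedd4l, Tsc22d3 and the proteases Prss8, St14, Furin and Klk1. Of these 9 genes 7 were tested, 0 passed the filter or limma, and the median of all 9 was 0.01, that of the 7 tested -0.03. Nr3c2, which encodes the mineralocorticoid receptor, was too dim to be tested, with signals between 6.65 and 8.17. All 7 tested genes had ratios of opposite sign on the arrays. St14, which encodes the membrane protease matriptase, was the 1 gene of the list that exceeded 1.5-fold to opposite sides at a signal over 100. Its signals were 350 for RNA A against 584 for RNA B on array 1, then 722 against 450 on array 2, which gave ratios of -0.74 and 0.68. Furin, a protease that cleaves the channel subunits, had -0.95 and 0.34, and Nedd4l, which removes the channel from the membrane, had -0.35 and 0.04.

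Other genes of principal cells went different ways. Of 8 listed genes 7 were tested, the median of all 8 was -0.10, and Aqp3 alone passed the filter, on the side of RNA B. Aqp3 encodes a water and glycerol channel that is found in the urothelium as well as in principal cells. Its signals were 189 for RNA A against 652 for RNA B on array 1, then 220 against 838 on array 2. The ratios were -1.78 and -1.93, the mean -1.86 ± 0.10 (SD, n = 2 arrays), and limma gave an adjusted p of 0.0138. Aqp3 passed the filter under the 8 alternatives with a limma fit, but limma called it under only 4 of them, its adjusted p running from 0.00714 to 1. The call was lost under normexp, centring, in the authors' table and with dim probes included. Fxyd4 and Aqp3 thus stood on opposite sides. Gata3, a factor of the ureteric bud and urothelium, had ratios of -1.05 and 0.29. Kcnj1, the potassium channel ROMK, was not well above background in any channel.

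Of 15 further genes of intercalated cells 12 were tested, 0 passed the filter or limma, and the median of all 15 was 0.15. Their largest ratios belonged to 2 subunits of the vacuolar proton pump, both at low signal. Atp6v0d2 had signals of 15.7 for RNA A against 8.20 for RNA B on array 1, then 14.1 against 4.82 on array 2. Its ratios were 0.94 and 1.54, the mean 1.24 ± 0.43 (SD, n = 2 arrays), and the adjusted p of limma was 0.0951. Atp6v1c2 had ratios of 0.64 and 1.16 at signals of 6.92 to 18.3, with an adjusted p of limma of 0.298. Both exceeded 1.5-fold on both arrays but missed the signal of 100, and RNA B of either gene was not well above background on array 2, so that the ratios there are uncertain. Dmrt2, a transcription factor gene, had 0.15 and 0.91. Among 9 subunits of the proton pump that most cells express, mean ratios lay between -0.14 and 0.18 and 0 passed the filter. Of 9 relatives of the collecting duct genes 6 were tested, and 0 passed the filter, with mean ratios from -0.22 to 0.42, the latter for Foxi2, a forkhead gene too dim to be tested.

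**Figure D4:**
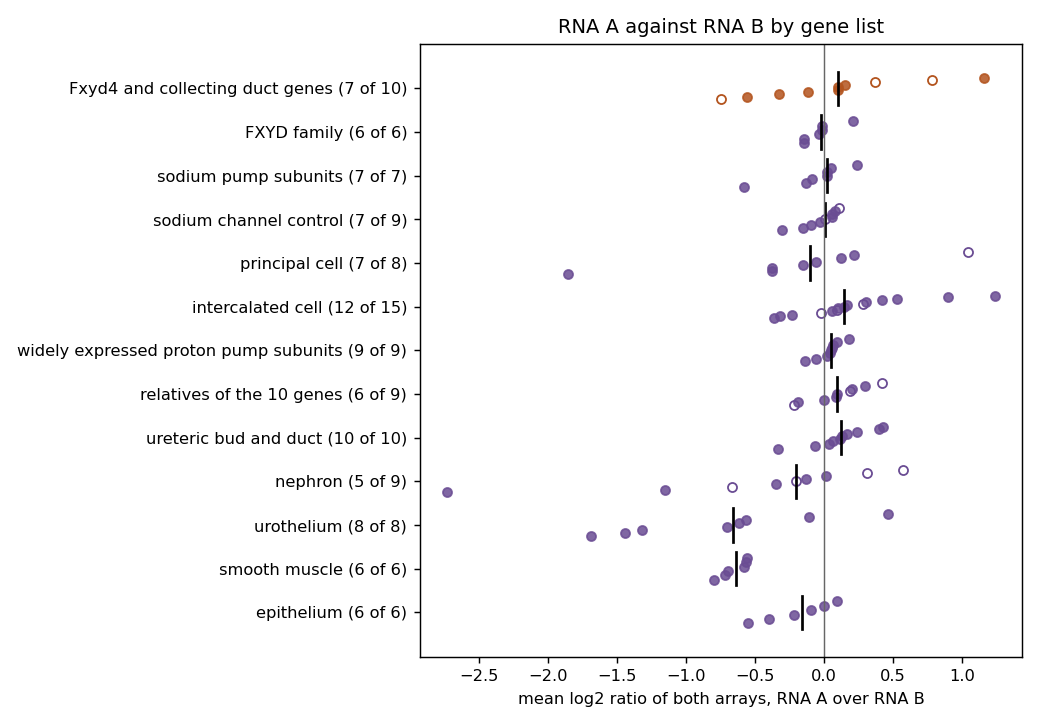
Mean log2 ratio of both arrays, RNA A over RNA B, for each gene (points, open where not tested) by gene list, with the list median as a bar and the median of all genes as the vertical line. Numbers in brackets give tested of listed genes. The FXYD family spans -0.15 to 0.21, well short of Fxyd4 at 1.16, and the 6 smooth muscle genes all lie between -0.80 and -0.56.

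The values of marker genes of other cells in the dissected tissue are given here beside those above. On each array all 6 smooth muscle genes were brighter in RNA B, their median being -0.64, and 0 of them passed the filter. Of 8 urothelial genes 4 passed the filter on the side of RNA B, namely Upk1a, Upk3a, Upk3b and Krt20, and the median of all 8 was -0.66. limma also called Upk1a and Upk3b, at adjusted p of 0.0451 and 0.0201. Krt5, a keratin of basal cells, stood on the other side with ratios of 0.26 and 0.67, and Trp63, a basal cell factor, had -0.31 and 0.10, neither past the filter or limma. The pan-epithelial list had a median of -0.16, with Cdh1 at -0.59 and 0.15, and 0 genes past the filter. Of 9 nephron genes 5 were tested, 0 passed the filter, and the median of all 9 was -0.21, that of the 5 tested -0.35. Slc34a1, a phosphate transporter of the proximal tubule, was called by limma at an adjusted p of 0.0122, with signals of 6.20 for RNA A, not well above background, against 30.8 for RNA B on array 1, then 4.20 against 37.2 on array 2. Over the 8 alternatives limma lost the calls of Upk3b and Slc34a1 in 4 and that of Upk1a in 6, always including normexp, centring, the authors' table and the inclusion of dim probes, with adjusted p from 0.00619 to 1. The ureteric bud and duct list had a median of 0.12, with 0 of 10 genes past the filter and ratios of -0.10 and 0.90 for Ret, the receptor gene of the bud tip. The part of these shifts in the ratios of the 10 genes was not tested.

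The level of a gene can also be compared between the arrays by averaging the log2 signals of both RNAs, which balances the dyes. Relative to the median of all genes, Calb1 was brighter on array 1, the female pools, by 1.15 on the log2 scale, and 0.686% of tested genes differed by more. Fxyd4 was brighter there by 0.46, Scnn1b by 0.24, Foxi1 by 0.18 and Scnn1g by 0.18. Scnn1a and Hsd11b2 differed by 0.03 and 0.02. With 1 array per sex, these differences have no test, and dissection, pool and sex cannot be told apart.

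Marker lists were compared between the arrays in the same way. The scale puts 50% of all genes above 0, and of the tested genes 42.7% were brighter on array 1. Of 9 nephron genes 7 were brighter on array 1, with a median of 0.64 over all 9 and of 0.55 over the 5 tested. Six2 and Cited1, which mark nephron progenitors, were brighter there by 0.72 and 0.55. The summed signal of the 9 genes was 3275 for RNA A against 4145 for RNA B on array 1, then 2716 against 2467 on array 2. Nphs1, Umod, Slc12a1 and Slc12a3 were too dim to be tested. Of 8 principal cell genes 5 were brighter on array 1, with a median of 0.35 over all 8. Among them Aqp2, the vasopressin-regulated water channel, was brighter there by 0.72. Gata2, Gata3 and Aqp3 went the other way, at -0.34, -0.29 and -0.24. Of the 15 intercalated cell genes 11 were brighter on array 1, with a median of 0.30. Of the 10 ureteric bud and duct genes, all tested, 9 were brighter on array 1, with a median of 0.20. By contrast, 5 of the 6 smooth muscle genes were brighter on array 2, with a median of -0.46. The summed signal of the 15 intercalated cell genes was 4371 for RNA A against 4549 for RNA B on array 1, then 3094 against 2897 on array 2. Most of it came from Car2, with 2911 against 2651 on array 1, and Slc4a1, with 880 against 1363. The sum therefore does not describe the list as a whole. The part of these differences in the levels of Calb1 and Fxyd4 was not tested.

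**Figure D5:**
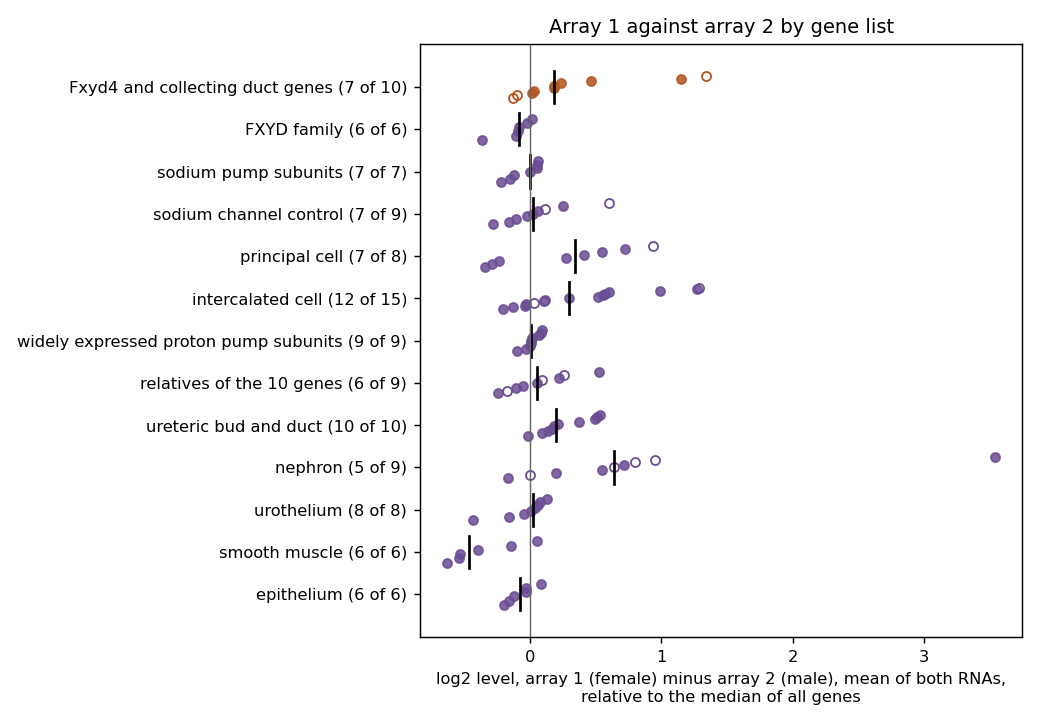
Log2 level on array 1 (female pools) minus array 2 (male pools), averaged over both RNAs and relative to the median of all genes, for each gene (points, open where not tested) by gene list. Bars are list medians and the vertical line marks 0. The nephron genes have a median of 0.64 and the smooth muscle genes one of -0.46, and Calb1 is the point of the collecting duct genes at 1.15.

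PPARG binds DNA with a retinoid receptor at direct repeats of AGGTCA with 1 base between them. RefSeq promoter windows of assembly GRCm38.p6, of 300 bases each, matched 7 of the 10 genes. The letters AGGTCANAGGTCA, searched on both strands, were found in 0 of these 7 windows and in 0.0396% of all 32851 windows. The single repeat AGGTCA, which every such pair contains, was found in the window of Scnn1b alone and in 16.3% of all windows. No match says only that these letters are missing from these windows.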

How the data were processed

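RNA of pooled E16.5 ureters was measured on 2 dual-colour arrays, 1 per sex, on 1 slide and in 1 scan. Groups were those of the labels. For the second channel the labels give E14.5 as the stage, whereas titles and protocols give E16.5, which was used. Per the file headers, the deposited intensities were processed with Agilent Feature Extraction 10.7.3.1, which subtracted background, set surrogate values near it (on array 1 for 7.98% of spots in green and 15.2% in red) and normalised the dyes within each array by a linear step and LOWESS, so that ratios of dim probes depend on these steps. The deposited log10 ratio was used only to check the dyes. The signed fold changes that the authors deposited as a table, treated as a score because it has no values between -1 and 1, has no stated scale, and its direction is given by the sample titles alone, which name Pparg-cKO against control. It ran as RNA A over RNA B on both arrays (r = 0.997 over probes at a signal of 100 or more in both RNAs) and served as an alternative. Depth is given by signal over background, and the number of arrays limits the precision.

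Control spots (17263 per array) and flagged spots (5705 and 5579) were left out, and log2 signals were averaged per probe, in general over 4 spots. Names came from RefSeq (GRCm38.p6, names only) for 28328 of 39429 probes. Positions were taken from the files (mm9). Each gene was read from its probe of highest mean log2 signal. limma 3.58.1 (R 4.3.3, lmFit with an intercept, eBayes, Benjamini-Hochberg) was fitted to the log2 ratios of 21429 genes, with 1 residual degree of freedom before moderation. An exact sign-flip test over 2 arrays cannot give a two-sided p below 0.5. The filter and limma were tested on simulated data. Plots were drawn with matplotlib 3.10.9.

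The members and gene lists were chosen with earlier results of these data known, some lists after values had been seen. Named are Pparg, the 10 genes, the 5 genes nearest to Fxyd4, and in each list the genes past the filter and otherwise at most the 3 of largest mean ratio. Genes of the marker lists named for the comparison between arrays, and others named outside this rule, were chosen after their values were seen. Alternatives were normexp (offset 50) with loess, loess, centring on the median, the authors' table, the mean over all probes, flagged spots kept, other thresholds, an intensity trend, no filter on dim probes and leaving out each array.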

Additional observations from a re-analysis of the deposited data

Results flagged for a closer look

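For 5 of the 10 genes the array of female pools and the array of male pools pointed to opposite sides. The log2 ratio on array 2 minus that on array 1 was 0.60 for Scnn1a, 0.61 for Hsd11b2, -0.43 for Foxi1, 1.46 for Slc26a4 and -1.01 for Calb1. The value of Slc26a4 gives no size, since only 1 RNA was well above background on each array. With 1 array per sex these differences were not tested, and dye and sex cannot be told apart in them. Among tested genes, 61.0% had ratios of opposite sign.

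The second Avpr2 probe, left out because all its spots were flagged as non-uniform, was far above background. Its brightest spot reached 1402 in RNA A on array 1.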

How the results depend on the processing

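Fxyd4 kept its side under all 10 alternatives run for its ratio, with means from 1.10 to 1.18 and 1.56 and 0.77 on a single array, and limma called it under none. Several of these could not change its ratio. Fxyd4 has 1 probe without flagged spots, so averaging probes or keeping flagged spots returned the same value. The intensity trend and the inclusion of dim probes bear on the test alone. Leaving out an array gives back the ratio of the other array. At 2-fold, 0 of the 10 genes passed the filter on the side of RNA A, because Fxyd4 fell short on array 1. On array 2 alone, 1 gene (Scnn1g) passed on the side of RNA B, so that this count ran from 0 to 1 when an array was left out, and that on the side of RNA A stayed at 1. With flagged spots kept, Avpr2 turned to -0.13 through its second probe, which also made 1 gene past 1.5-fold in opposite directions. Leaving out an array turned the side of Scnn1a (-0.20 to 0.40), Hsd11b2 (-0.20 to 0.41), Foxi1 (-0.065 to 0.37), Slc26a4 (-0.36 to 1.09) and Calb1 (-0.62 to 0.39), where the values of Slc26a4 rest on signals not well above background and give no size. In the authors' table Avpr2 and Atp6v1b1 stand at 0. Over all genes, limma called 67 genes in the main analysis, 33 after loess, 45 with flagged spots kept, 1 after normexp or centring, and 0 in the authors' table or with dim probes included. The prior degrees of freedom with which limma pools the spread were 7.6 in the main analysis, 5.71 after centring and 2.17 with dim probes included. No limma value exists with 1 array. No paired analysis was possible because the samples form 1 group of ratios.

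Of the levels between arrays, with alternatives chosen after seeing the data, Calb1 went from 1.15 to 0.57 and the nephron median from 0.64 to 0.20 under normexp, whose offset compresses dim signals. Avpr2 went from 1.34 to 0.31, and to 0.07 with flagged spots kept, where Hsd11b2 turned from 0.016 to -0.029.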

Other observations

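Fxyd4 and Pparg lie on the same chromosome, with their probes 2.44 Mb apart on chromosome 6 of mm9. Of 46 genes with values between them 40 were tested, 0 passed the filter in either direction, and the median of their mean log2 ratios was 0.01. Within 1 Mb of the Fxyd4 probe, 18 of 23 genes were tested and 0 passed the filter. Their mean log2 ratios ran from -0.58 for Cacna1c, a calcium channel gene, to 0.40 for Ret. These windows and genes were chosen after values had been seen.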
